A study of Mus musculus with 18 samples.

Results

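The genes described here are 38 genes of RNA sensing and of the interferon response, out of 31165 genes listed for the livers of newborn C57BL/6J mice. They were taken by symbol: 9 sensors and sensor partners of RNA and other nucleic acids, 5 transcription factors, 6 genes of the IFIT and IFI families, 5 genes of the OAS family, 5 antiviral effectors, 4 genes of the ISG15 and ubiquitin branch, and 4 further interferon-stimulated genes. All 38 were in the table and all 38 passed the minimum for testing, which was a mean level of at least 10 across the 18 libraries. The choice used no measured value of these livers as its rule, but earlier results of these data were known when the genes were listed.

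Pups received intraperitoneal injections on postnatal days 1 and 3, day 1 being the day of birth. One arm received a chemically stabilised mimic of the microRNA miR-497a-5p and the other an inert scrambled mimic, so every liver in the series came from a pup injected with a synthetic RNA. No uninjected liver was analysed here. Harvest was at P5, P7 or P14, and each arm gave 3 livers on each day: P5 scrambled, P5 mimic, P7 scrambled, P7 mimic, P14 scrambled and P14 mimic. Doses in the protocol are 10 and 100 mg per kg, but which of them a given library received is not in its labels. Neither are the litters, so the p-values measure the spread between these livers. The mRNA libraries do not measure the short mimic itself.

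Cells recognise foreign RNA through receptors in endosomes, the toll-like receptors, and through helicases in the cytoplasm that signal by way of the adaptor MAVS. Both routes lead to type I interferon, which acts through its receptor and a complex that holds STAT2 and IRF9 on a short promoter element, the interferon-stimulated response element. The genes so induced encode sensors, transcription factors and antiviral proteins, and in the liver they are expressed by hepatocytes as well as by resident macrophages, endothelium and other blood-derived cells. Synthetic RNAs can engage these receptors, depending on their sequence, length and chemical modification.

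The natural counterpart of the injected mimic is shown first because it is the RNA that the 2 arms differ by. The mature sequence below is from RefSeq on GRCm38.p6, at chr11:70234730-70234751 on the plus strand, 22 bases, with the seed (bases 2 to 8) in capitals. The sequence of the scrambled mimic and the modifications of either molecule are not given in the sources used here.
mmu-miR-497a-5p: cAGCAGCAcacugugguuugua

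A match to that seed (TGCTGCT) was found in the annotated 3′ UTR of 7 of the 38 genes, or 18.4%, against 24.5% of the 13083 tested genes with an annotated 3′ UTR in GENCODE M21. Windows of 19 bases around the sites are shown for 4 of these genes on which results below turn, with the match in capitals. No site among the 7 genes is followed by an A. The other 3 genes with a site were Irf1, Herc6 and Parp14. A match describes letters and not a working target site.
Ifit3: gtgctgtggagTGCTGCTt
Stat2: atgtgaagctcTGCTGCTc
Oas1a: tcaggggcattTGCTGCTc
Rsad2, first of 2 overlapping matches: ccagcctctgaTGCTGCTg

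Promoters are described because the response element named above lies there. RefSeq promoter windows on GRCm38.p6, from 250 bases before to 50 bases after the start of transcription, were at hand for 28 of the 38 genes. The core of the interferon-stimulated response element, GAAA followed after any 2 bases by GAAA, searched on either strand with overlapping matches counted, was in 12 of the 28 windows (42.9%) and in 3.92% of the 10682 tested genes with such a window. These 12 were Bst2, Cxcl10, Ddx58, Eif2ak2, Ifih1, Ifit1, Ifit3, Isg15, Oas1a, Oas3, Rsad2 and Stat2. The gamma-activated sequence TTCNNNGAA, searched the same way, was in 7 of 28 windows (25%) and in 8.43% of the tested genes.

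The 250 bases before the start are shown for the 5 of the 8 most strongly falling genes that hold a match, and for Stat2, which holds a match and rose. Each is written 5′ to 3′ on the strand of its gene, with the matches in capitals. Isg15 has 3 overlapping matches, beginning 78 bases before the start. Oas3 has 1 at 75 bases, Rsad2 has 1 at 120 bases, Ifit1 has 2 from 104 bases, Oas1a has 2 overlapping ones from 20 bases, and Stat2 has 1 at 222 bases before the start.
Isg15, chr4:156200819-156201068, minus strand: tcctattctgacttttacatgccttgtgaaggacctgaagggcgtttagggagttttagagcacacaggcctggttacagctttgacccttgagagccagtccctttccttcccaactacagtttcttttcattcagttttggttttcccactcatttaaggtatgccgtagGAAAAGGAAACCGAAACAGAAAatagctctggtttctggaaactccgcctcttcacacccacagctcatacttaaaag
Oas3, chr5:120777660-120777909, minus strand: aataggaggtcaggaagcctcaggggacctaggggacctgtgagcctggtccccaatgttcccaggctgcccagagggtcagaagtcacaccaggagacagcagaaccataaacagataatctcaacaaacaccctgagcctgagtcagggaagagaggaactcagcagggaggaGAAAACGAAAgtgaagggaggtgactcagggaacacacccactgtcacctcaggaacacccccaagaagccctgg
Rsad2, chr12:26456453-26456702, minus strand: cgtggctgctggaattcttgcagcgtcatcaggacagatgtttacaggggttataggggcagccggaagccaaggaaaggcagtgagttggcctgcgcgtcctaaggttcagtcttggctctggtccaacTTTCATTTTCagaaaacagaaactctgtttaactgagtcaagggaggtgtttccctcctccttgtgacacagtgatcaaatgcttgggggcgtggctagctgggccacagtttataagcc
Ifit1, chr19:34640639-34640888, plus strand: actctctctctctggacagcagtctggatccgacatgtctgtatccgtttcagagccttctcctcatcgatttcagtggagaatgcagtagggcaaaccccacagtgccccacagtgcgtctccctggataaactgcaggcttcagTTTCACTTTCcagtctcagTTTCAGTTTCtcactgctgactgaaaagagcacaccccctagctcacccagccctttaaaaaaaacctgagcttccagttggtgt
Oas1a, chr5:120907526-120907775, minus strand: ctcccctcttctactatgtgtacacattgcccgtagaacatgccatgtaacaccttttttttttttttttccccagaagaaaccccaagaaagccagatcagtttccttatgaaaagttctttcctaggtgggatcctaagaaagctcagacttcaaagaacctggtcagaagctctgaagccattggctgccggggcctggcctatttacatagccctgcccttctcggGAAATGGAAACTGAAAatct
Stat2, chr10:128270248-128270497, plus strand: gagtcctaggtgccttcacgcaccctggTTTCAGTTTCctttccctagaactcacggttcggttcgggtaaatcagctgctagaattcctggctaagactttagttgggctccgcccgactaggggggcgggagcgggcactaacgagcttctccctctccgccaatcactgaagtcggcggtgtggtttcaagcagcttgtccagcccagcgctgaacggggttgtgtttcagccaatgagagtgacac

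Values are scaled counts, that is read counts per gene that the authors divided by a size factor for each library and rounded. Single values of the 38 genes lay between 10 and 1215 scaled counts, and 30 of the genes had a mean of 100 or more. Per kb of exon, at P5, the levels were highest for Bst2, which tethers budding viruses to the cell surface, at 481 ± 60.0 scaled counts per kb (SD, n = 6). Isg15, a ubiquitin-like modifier, followed with 370 ± 62.4 per kb, and Rsad2, which encodes viperin, with 281 ± 44.4 per kb. Bst2 and Rsad2 were apart by more than their SDs, whereas neighbours further down, such as Ifi35 at 238 ± 30.7 and Ifi27 at 236 ± 21.2 per kb, did not differ beyond their spread. The lowest per kb at P5 were Tlr8 at 9.04 ± 4.55, Mx1 at 13.9 ± 3.40, Mx2 at 21.2 ± 3.99, Oas2 at 25.7 ± 6.21 and Tlr7 at 27.7 ± 9.86. Transcripts of the sensors and effectors named here were thus present at every age in both arms.

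Library totals lay between 3954405 and 4248257 scaled counts, and no pair of replicates held identical values. Since raw depth is not known, the spread between replicates could not be set against sampling noise. The 10 hepatocyte markers summed to between 10619 and 15514 scaled counts in each library. At P5 they summed to 10619 to 14550, and 16 macrophage markers summed to 9222 to 10970. Hepatocyte markers thus did not stand far above those of macrophages. Whether scaled counts stay proportional to RNA at high levels was not tested, and levels per kb and fold changes are read with that limit. Libraries that stand apart were found at P7. P7 scrambled replicate 1 carried 1832 scaled counts of 8 muscle markers and replicate 3 carried 401, against 24 or fewer in each other library. P7 scrambled replicate 3 also had 3.04 scaled counts per kb over 8686 genes that were all but silent elsewhere. Replicate 2 had 0.166, and each other library had 0.0257 or less. Neither replicate 2 nor replicate 3 was used to pick these genes, so their gap to the rest follows partly from that choice. The mimic differences at P7 and the counts of age calls that use P7 are given below with and without the P7 scrambled libraries that stand apart. The muscle tissue and the stray signal were not tested as parts of any result.

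**Figure D1:**
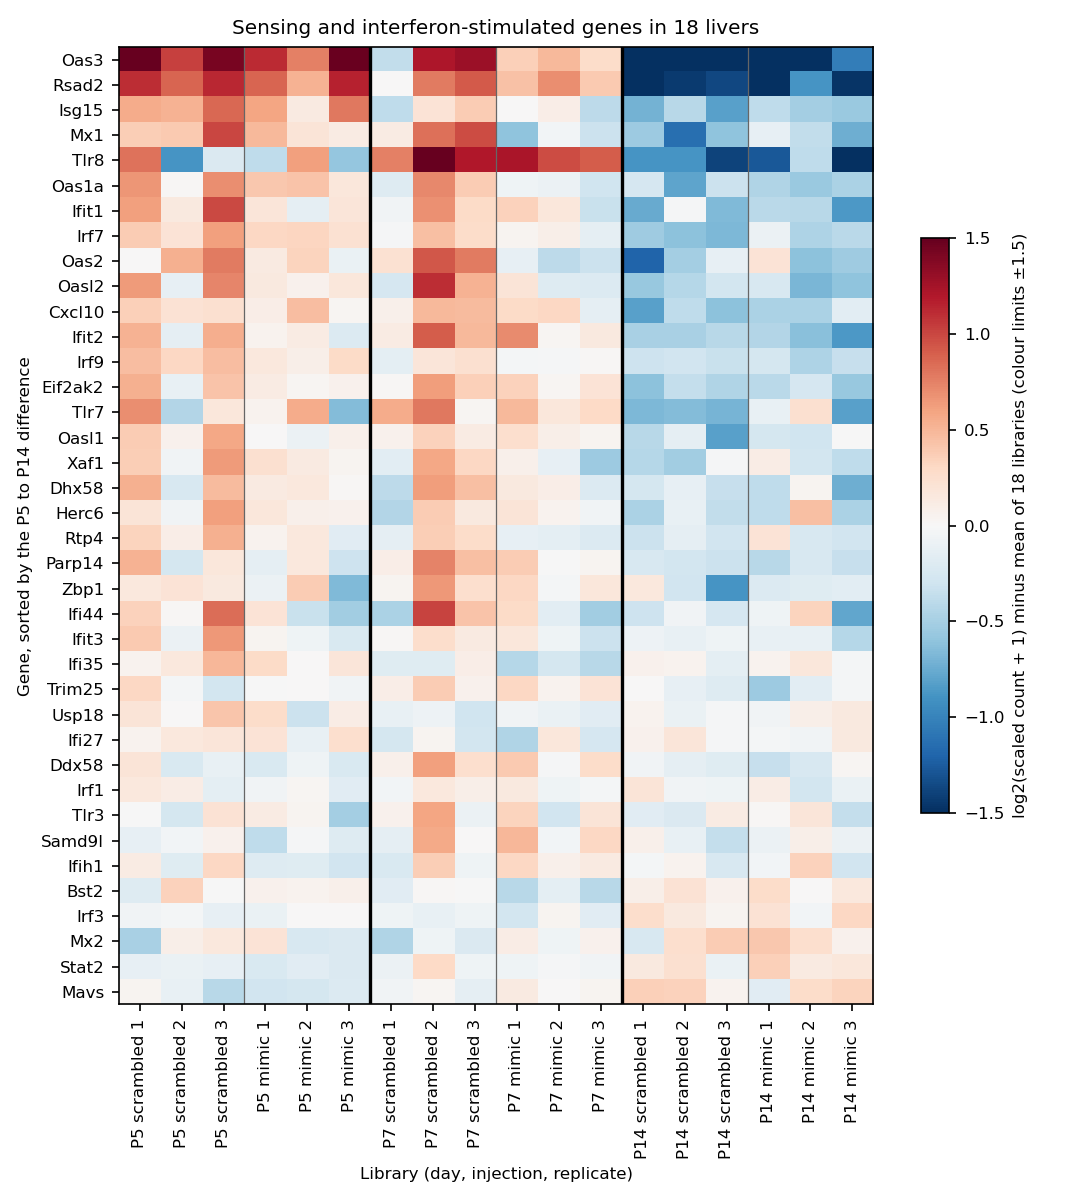
Heat map of the 38 genes (rows, sorted by their P5 to P14 difference) in the 18 libraries (columns, by day, injection and replicate). Colour is log2(scaled count + 1) minus the mean of the gene over all libraries, with colours capped at ±1.5; P14 columns are blue for most of the upper rows, and P7 scrambled replicate 2 is red for most genes.

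The first question was whether the mimic and the scrambled RNA differed in the response of these genes. None of the 38 passed an adjusted p of 0.05 at P5, at P7, at P14 or in the average over the days (limma, Benjamini-Hochberg over 14104 genes). Few genes of any kind did so: 0% of the tested genes at P5, 0.00709% at P7, 0.0213% at P14 and 0.00709% in the average. Tlr3, Tlr7, Ddx58 (which encodes RIG-I) and Ifih1 (MDA5), the sensors that bind foreign RNA, had overlapping mimic and scrambled values at every day. At P5 and P7 most of the 38 genes lay lower in the mimic livers, and at P14 a majority lay higher.

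**Figure D2:**
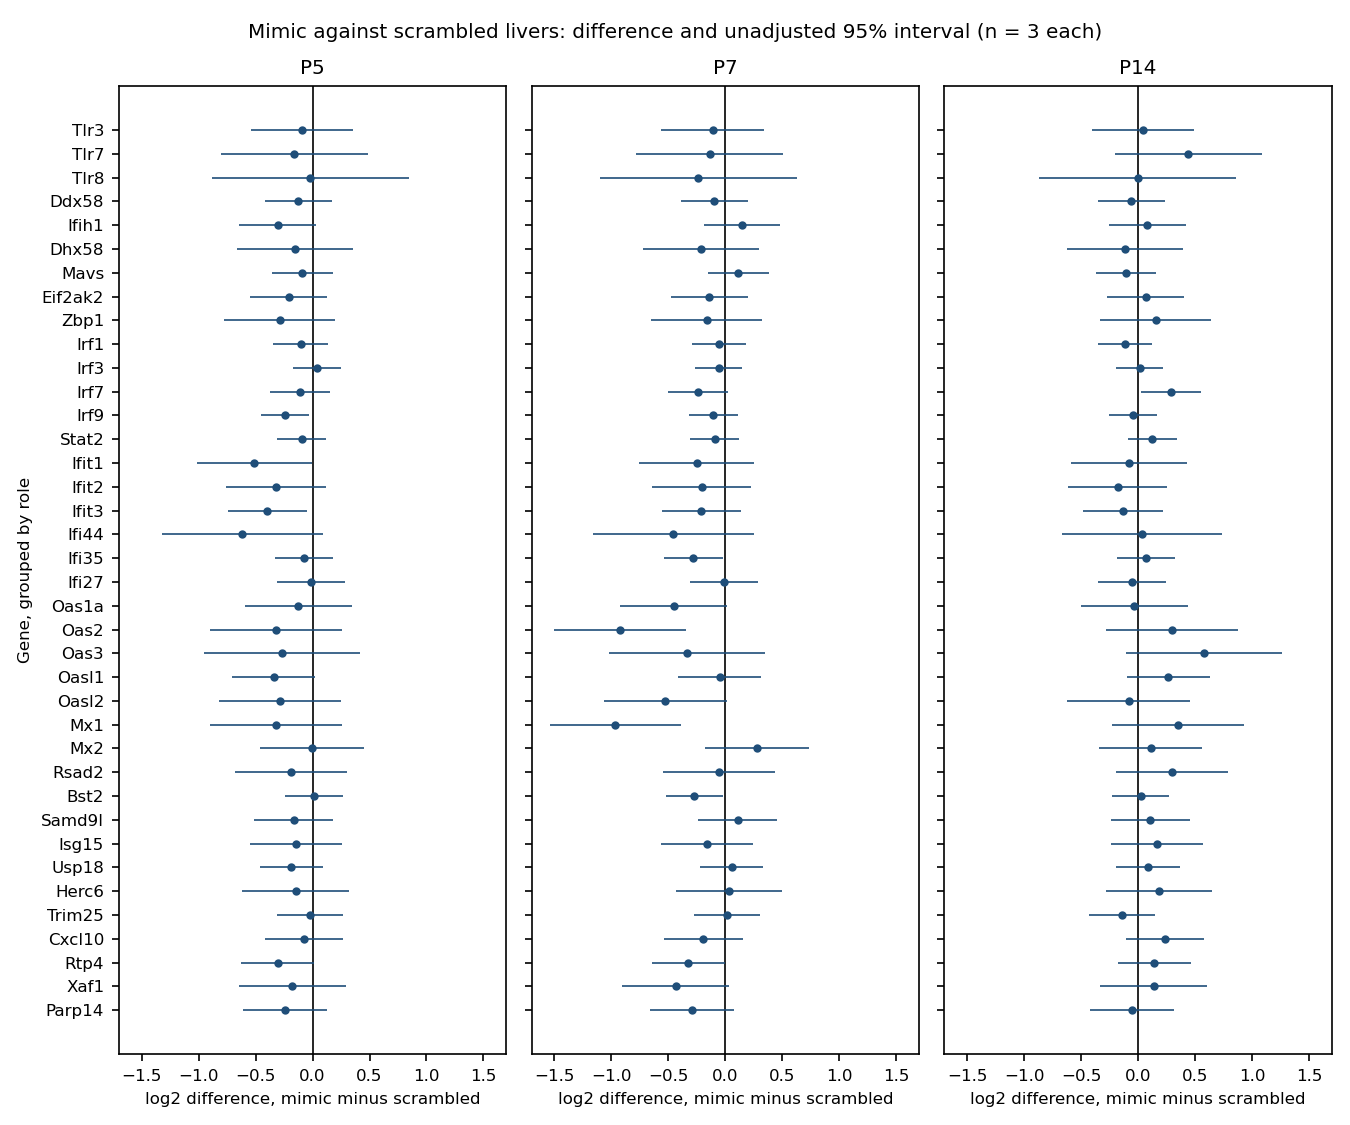
Difference in log2(scaled count + 1), mimic minus scrambled, for each of the 38 genes (rows, grouped by role) at P5, P7 and P14; points are estimates and bars are unadjusted 95% intervals, 3 livers per group. At P5, 36 of 38 points lie left of 0; at P7, 31 do; at P14, 24 lie right of it.

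At P5, 36 of the 38 genes lay below 0, against 55% of all tested genes, with a median difference of -0.16 on the log2 scale against -0.01 for all genes. The 3 genes with an unadjusted p under 0.05 were Irf9, Ifit3 and Ifit1, where 1.89% of all tested genes had such a p, and every one of these had an adjusted p of 1. Irf9 encodes the DNA-binding part of the interferon-activated complex. Its scaled counts were 438, 393 and 437 in P5 scrambled replicates 1 to 3 and 352, 335 and 386 in the mimic livers. All 3 mimic values were under the lowest scrambled one, a difference of -0.24 ± 0.10 (log2, SE).

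Ifit3 and Ifit1 encode proteins that bind viral RNA or each other. Ifit3 read 204, 146 and 244 in the P5 scrambled livers and 160, 149 and 133 in the mimic livers. Ifit1 read 256, 185 and 332 in the scrambled and 189, 152 and 189 in the mimic livers. In both genes scrambled replicates 1 and 3 were the highest, and scrambled replicate 2 lay among the mimic values. The differences were -0.40 ± 0.17 for Ifit3 and -0.51 ± 0.24 for Ifit1 (log2, SE).

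Rtp4, a receptor transporter induced by interferon, had the next smallest p, 0.061. It read 254, 215 and 290 in the scrambled and 209, 224 and 179 in the mimic livers at P5, with overlap at scrambled replicate 2. With P5 scrambled replicate 1, 2 or 3 left out, 33, 35 and 32 of the 38 still lay below 0, with medians of -0.15, -0.29 and -0.13. How many had an unadjusted p under 0.05 moved with the liver left out: 11 did without replicate 2, and 0 did without replicate 1 or replicate 3. The share of all tested genes in these fits is not given here, so the counts are not read as particular to the 38. No gene passed the adjusted threshold in any of these fits. Groups that did not overlap, with mimic lower, were found for Irf9 and Stat2 among the 38 and for 2.12% of all tested genes, and with mimic higher for 0 of the 38 and 2.89% of all tested genes.

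At P7, 31 of 38 lay below 0, against 51.2% of all genes, with a median of -0.16 against 0.00 for all genes. There were 5 with an unadjusted p under 0.05, where 7.61% of all tested genes had one, and the smallest adjusted p was 0.333. Mx1, an antiviral GTPase whose C57BL/6 allele is known to lack coding exons, read 37, 61 and 68 in the scrambled and 22, 33 and 27 in the mimic livers. The groups did not overlap, and the mimic livers were 1.95-fold lower, with an interval from 1.31 to 2.91. Oas2, which makes short chains of linked adenylates on binding double-stranded RNA, read 96, 157 and 141 in the scrambled and 75, 62 and 65 in the mimic livers. All 3 mimic values were again lower, by 1.90-fold with an interval from 1.27 to 2.84.

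Ifi35, which encodes a leucine zipper protein, read 247, 248 and 301 in the P7 scrambled and 208, 234 and 211 in the mimic livers, so the groups did not overlap. Bst2 read 324, 368 and 362 against 274, 329 and 272, with mimic replicate 2 just above scrambled replicate 1. The differences were -0.28 ± 0.12 and -0.27 ± 0.12 (log2, SE). Groups lay apart with mimic lower for Ifi35, Oas2 and Mx1, 3 of 38, and for 7.44% of all tested genes.

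The P7 scrambled livers differed among themselves in these genes. Without scrambled replicate 1, the library with 1832 scaled counts of muscle markers, the median was -0.31. In that fit 14 of the 38 had an unadjusted p under 0.05, but none an adjusted one. The share of all tested genes with such an unadjusted p, in this fit and the next, is not given here. These counts are therefore not read as particular to the 38. Without scrambled replicate 3 the median was -0.14, 32 of 38 lay below 0, 2 had an unadjusted p under 0.05 and the smallest adjusted p was 0.836. Without scrambled replicate 2 alone the median was -0.01 and 21 of 38 lay below 0, so most of the shift below 0 went with that 1 liver. Without scrambled replicates 2 and 3 together the median turned to 0.09 and 9 of 38 lay below 0. The single remaining liver is then taken to vary like those of the other groups.

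The single genes named at P7 stayed lower in the mimic livers without scrambled replicate 1, without replicate 3 and without replicates 2 and 3, with sizes that moved. Mx1 differed by -0.96 on the log2 scale with all livers, -1.23 without scrambled replicate 1, -0.79 without replicate 3 and -0.44 without replicates 2 and 3. Oas2 differed by -0.93, -1.14, -0.86 and -0.51 in the same order. Mx1 and Oas2 thus differed least against scrambled replicate 1 alone. Ifi35 differed by -0.28, -0.33, -0.19 and -0.18, and Bst2 by -0.27, -0.33, -0.25 and -0.16. None of these passed the adjusted threshold.

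At P14, 24 of 38 lay above 0, and 48.8% of all tested genes lay below it. The median was 0.07 against 0.00. Irf7, the transcription factor that amplifies type I interferon, read 281, 266 and 254 in the scrambled and 384, 294 and 308 in the mimic livers. Every mimic value was the higher one, and the difference was 0.29 ± 0.13 (log2, SE; adjusted p = 0.871, limma). That was the single one of the 38 with an unadjusted p under 0.05, against 5.41% of all tested genes.

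Oas3, an enzyme of the same family, was the second gene whose P14 groups lay apart, with 35, 25 and 31 scaled counts in the scrambled and 39, 38 and 63 in the mimic livers. Its difference of 0.58 ± 0.33 had an adjusted p of 0.969. Oasl1, a family member known to restrain the translation of Irf7, read 73, 89 and 55 against 81, 79 and 97. Tlr7, an endosomal receptor for single-stranded RNA, read 62, 63 and 61 in the scrambled and 92, 117 and 56 in the mimic livers. Mimic replicates 1 and 2 were above the scrambled livers for Tlr7, and mimic replicate 3 was below them. Groups lay apart with mimic higher for 2 of 38 and for 4.96% of all tested genes.

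Averaged over the 3 days, 33 of 38 lay below 0 (51.6% of all genes), with a median of -0.08 against 0.00. Ifit3 had the smallest p, 0.019, with -0.25 ± 0.10, then Irf9 with -0.13 ± 0.06, Oasl2 with -0.30 ± 0.15 and Ifit1 with -0.28 ± 0.14 (log2, SE). All had an adjusted p of 1. Of the 38, 2 had an unadjusted p under 0.05, and 3.24% of all tested genes did. The count below 0 in the average moved with the P7 scrambled livers. It was 25 of 38 without replicate 2 (median -0.03) and 36 without replicate 1 (median -0.12). Without replicates 2 and 3 together it was 23 (median -0.01). The test of whether the mimic effect differed between days gave 3 of the 38 an unadjusted p under 0.05, Mx1, Oas2 and Irf7, against 6.5% of all tested genes. Their adjusted p-values were 0.627, 0.654 and 0.659, so a change of the effect with age was not shown for any of the 38.

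Under a shared spread, the intervals limit how large a difference could have gone unseen. Each gene has 1 spread from all 18 libraries, so the median half-width was 0.37 (log2) on each day. Livers of P7 scrambled differed among themselves, and the P7 bounds rest partly on scrambled replicate 2. Without that liver the P7 median moved from -0.16 to -0.01. The highest upper bound of any of the 38 unadjusted 95% intervals was 1.79-fold higher in mimic livers at P5, 1.66-fold at P7 and 2.40-fold at P14, and the median upper bound was 1.17-fold, 1.18-fold and 1.36-fold. Downward, the lowest bounds were 2.49-fold, 2.91-fold and 1.83-fold lower. These intervals compare the mimic with the scrambled RNA, and a response to both alike would not appear in them. Genes with and without a seed match in the 3′ UTR had medians of -0.15 and -0.17 at P5, -0.09 and -0.17 at P7, and -0.03 and 0.07 at P14, where 7 genes had a match and 31 had none.

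The 38 genes moved together between livers of the same group. With group means removed, the median correlation between pairs of the 38 across the 18 libraries was 0.301, and 24.8% of pairs were above 0.5, where the median over pairs of all 14104 tested genes was -0.000546 and 9.03% were above 0.5. These are descriptions over libraries that also share depth and sample makeup. Dhx58, which encodes the helicase LGP2, followed the mean of the other 37 most closely, with a correlation of 0.909, before Ifi44 (0.886), Oasl2 (0.882), Ifit2 (0.870) and Eif2ak2 (0.863). The adaptor Mavs (-0.0668), Bst2 (-0.158) and Irf3 (-0.347), the factor that starts interferon transcription, did not follow it. Since so many of these genes moved together, counts of genes below 0 in a mimic comparison do not count independent events.

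In P7 scrambled replicate 2, 36 of the 38 genes were above the mean of their group, by 0.27 on average on the log2 scale, and in replicate 1 only 3 were, with an average of -0.31. Among the P5 scrambled livers replicate 3 had 28 genes above the group mean and replicate 2 had 9. Ifi44, for example, read 61, 173 and 115 in P7 scrambled replicates 1 to 3, and Oasl2 read 166, 428 and 285. No mimic liver and no P14 liver deviated by more than 0.107 on average.

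**Figure D3:**
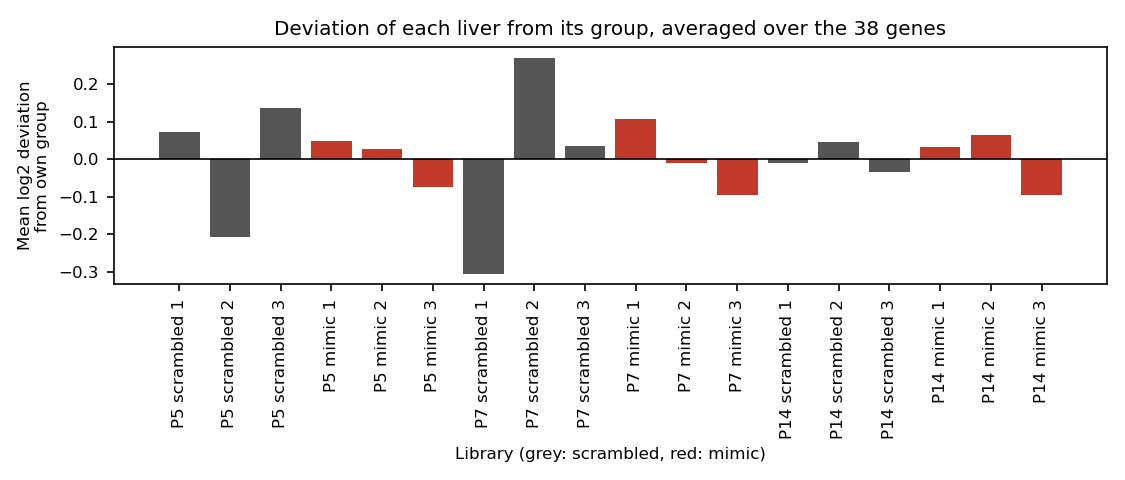
Mean deviation of each of the 18 libraries from its own group of 3, averaged over the 38 genes, on the log2 scale (bars from 0; grey scrambled, red mimic). P7 scrambled replicates 1 (-0.31) and 2 (0.27) lie farthest from 0, then P5 scrambled replicate 2 (-0.21).

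The second question was how these genes run from P5 to P14, and here many of them changed. Both arms were averaged with equal weight, giving 6 livers per day. From P5 to P14, 23 of the 38 changed, or 60.5%, against 48.8% of all tested genes. Of these, 20 fell and 3 rose, where 24.8% of all tested genes fell and 23.9% rose. The median difference of the 38 was -0.38 on the log2 scale against 0.01 for all genes. Oas3, Rsad2, Isg15 and Mx1 fell furthest, and Mavs, Stat2 and Irf3 rose.

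The 38 were called more often from P7 to P14 than from P5 to P7. From P7 to P14, 21 of the 38 fell and 3 rose, where 26.3% and 24% of the tested genes did, with a median of -0.40. Together that is 63.2% of the 38 and 50.3% of all tested genes. From P5 to P7, 6 fell and 2 rose, together 21.1% against 26.9% of all tested genes, of which 13.2% fell and 13.7% rose, and the median of the 38 was -0.06. The P5 to P7 calls moved with another measure. In each library, the log2 deviations of genes from their mean over the 18 libraries were rank-correlated with the exon length of the gene. That correlation ran from -0.372 to 0.198 in the P5 and from 0.0494 to 0.499 in the P7 libraries. In the P14 libraries it ran from -0.24 to 0.0247, below that of every P7 library. With that correlation as a covariate 0 of the 38 and 0.00709% of all tested genes changed from P5 to P7, 10 of the 38 fell from P7 to P14, where 23.8% of all tested genes changed, and 26 changed from P5 to P14, where 54.5% did. The medians of the 38 were then -0.19 from P5 to P7 and -0.14 from P7 to P14, so which step held the larger part turned with the covariate. Those 10 were Cxcl10, Eif2ak2, Ifit2, Irf7, Irf9, Isg15, Mx1, Oas3, Rsad2 and Tlr8, and the other calls of that step given below were lost. The part of age and of this measure cannot be told apart, either in the P5 to P7 or in the P7 to P14 differences.

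The calls around P7 also moved with the P7 scrambled livers that stand apart. Without replicate 1, 3 of the 38 fell and 4 rose from P5 to P7, where 23.1% of all tested genes changed. In the same fit 24 fell and 3 rose from P7 to P14, where 49.5% of all tested genes changed. Without replicate 3, 6 fell and 3 rose from P5 to P7, where 27% of all tested genes changed. From P7 to P14, 21 fell and 3 rose in that fit, where 47.9% of all tested genes changed. Without replicates 2 and 3 together, 7 fell and 0 rose from P5 to P7, where 10.4% of all tested genes changed. From P7 to P14 there were then 11 that fell and 4 that rose, where 33% of all tested genes changed. The calls of the later step lost in that fit were those of Dhx58, Ifit1, Isg15, Mx1, Oas1a, Oas2, Oasl1, Oasl2, Trim25 and Zbp1.

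**Figure D4:**
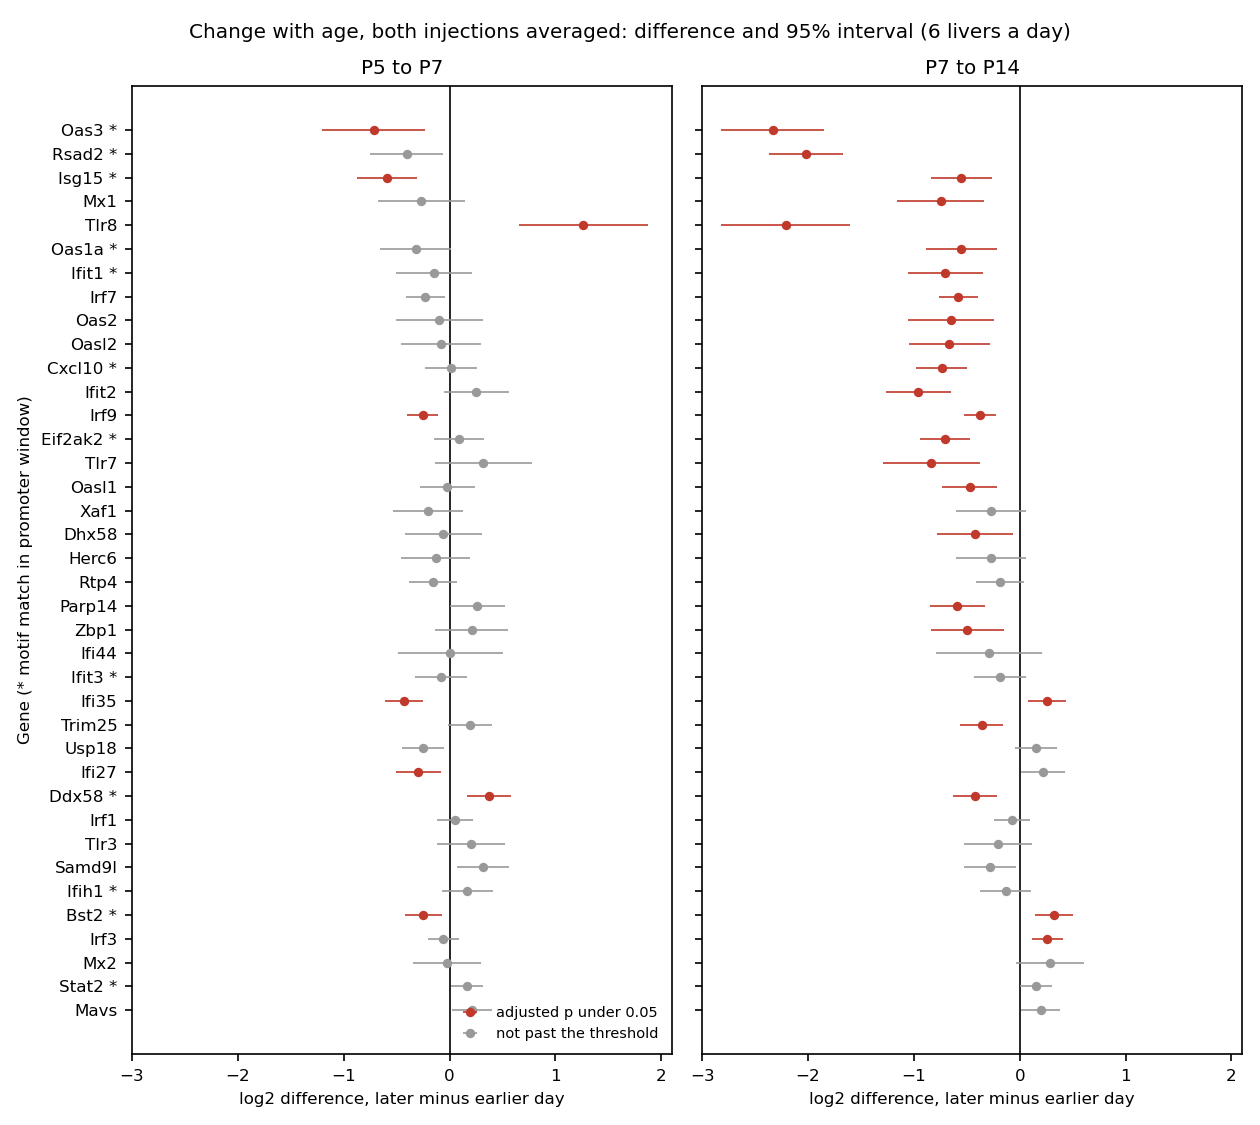
Difference in log2(scaled count + 1) with age for the 38 genes (rows, sorted by their P5 to P14 difference), from P5 to P7 and from P7 to P14; points are estimates over 6 livers per day, bars are unadjusted 95% intervals, and red marks an adjusted p under 0.05. A star marks the 12 genes with a match to the response element core; 8 genes are red in the first panel and 24 in the second, 21 of those to the left of 0.

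Among the 9 sensors and their partners, 3 fell from P5 to P14 (Tlr8, Eif2ak2 and Dhx58), 1 rose (Mavs) and 5 did not pass the test. The receptors of double-stranded RNA, Tlr3, Ifih1 and Ddx58, did not pass from P5 to P14. Tlr3, the endosomal one, at chr8:45395665-45410619, read 148, 123 and 172 in P5 scrambled and 162, 153 and 104 in P5 mimic livers, then 155, 225, 140, 188, 121 and 170 at P7 and 132, 127, 161, 150, 169 and 116 at P14, in the same order. All 3 days overlapped, and the P5 to P14 difference was 0.00 ± 0.15 (log2, SE), with an interval from 1.25-fold lower to 1.24-fold higher.

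Ifih1 read 487, 394, 553, 390, 394 and 366 at P5, then 382, 578, 426, 555, 470 and 489 at P7, and 438, 463, 377, 432, 569 and 366 at P14. The 3 days covered nearly the same range. Ddx58 rose from a mean of 352 ± 42.2 at P5 to 459 ± 73.0 at P7 and fell to 341 ± 30.8 at P14 (SD, n = 6). Its single values were 431, 323, 351, 323, 361 and 322 at P5, 399, 578, 451, 497, 373 and 457 at P7, and 363, 345, 334, 298, 321 and 385 at P14, scrambled replicates first. P5 and P14 overlapped throughout, and both calls around P7 were lost with the length covariate (adjusted p = 0.448 from P7 to P14, limma).

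Tlr7 and Tlr8 are neighbouring genes on chromosome X, at 167304929 to 167330558 and 167242696 to 167264286, and encode endosomal receptors of single-stranded RNA. Tlr7 read 162, 73, 112, 103, 146 and 63 at P5, then 146, 172, 101, 139, 112 and 122 at P7, and 62, 63, 61, 92, 117 and 56 at P14. It fell by 0.84 from P7 to P14 on the log2 scale (SE 0.22; adjusted p = 0.00412, limma), and this call was lost with the length covariate (adjusted p = 0.536). Tlr8 read 54, 16, 26, 23, 47 and 20 at P5, then 52, 114, 71, 72, 61 and 58 at P7, and 16, 16, 11, 12, 23 and 10 at P14. All P7 livers were above all P14 livers, a 4.63-fold fall with an interval from 3.03 to 7.07. Its 2.40-fold rise from P5 to P7 overlapped at P5 scrambled replicate 1, and the call was lost without P7 scrambled replicates 2 and 3.

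Eif2ak2, which encodes the kinase PKR that stops translation on sensing double-stranded RNA, fell 1.54-fold from P5 to P14, from values of 233 to 363 down to 164 to 211, without overlap. Dhx58 fell 1.40-fold, from values of 105 to 180 down to 74 to 127, with overlap. Zbp1, a sensor of Z-form nucleic acid, fell from P7 to P14 by 0.49 on the log2 scale (adjusted p = 0.0183, limma). Mavs read 515, 461, 376, 409, 418 and 433 at P5, then 481, 511, 456, 550, 503 and 515 at P7, and 642, 638, 520, 446, 604 and 631 at P14. It rose 1.33-fold from P5 to P14, and P14 mimic replicate 1 was the liver that lay among the P5 values.

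Of the 5 transcription factors, Irf7 and Irf9 fell and Stat2 and Irf3 rose from P5 to P14, while Irf1 had means of 422, 437 and 417. Irf7 read 531, 470, 622, 505, 511 and 479 at P5, then 403, 556, 492, 420, 433 and 370 at P7, and 281, 266, 254, 384, 294 and 308 at P14. Every P14 liver was below every P5 liver, a 1.75-fold fall with an interval from 1.54 to 1.99. Irf9 read 438, 393, 437, 352, 335 and 386 at P5, then 285, 359, 375, 310, 312 and 319 at P7, and 254, 258, 251, 263, 229 and 249 at P14. It fell at both steps, in all 1.55-fold, again without overlap of P5 and P14.

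Stat2, the partner of Irf9 in the complex, went the other way. It read 540, 545, 540, 499, 519 and 502 at P5, then 551, 722, 560, 559, 579 and 566 at P7, and 649, 694, 546, 748, 644 and 661 at P14. The lowest P14 value was just above the highest P5 value, and the rise was 1.25-fold. Irf3 read 364, 370, 344, 351, 377 and 378 at P5, then 360, 349, 361, 311, 387 and 333 at P7, and 452, 415, 387, 436, 367 and 465 at P14. P14 mimic replicate 2 lay among the P5 values, and the rise was 1.15-fold (adjusted p = 0.0231, limma).

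**Figure D5:**
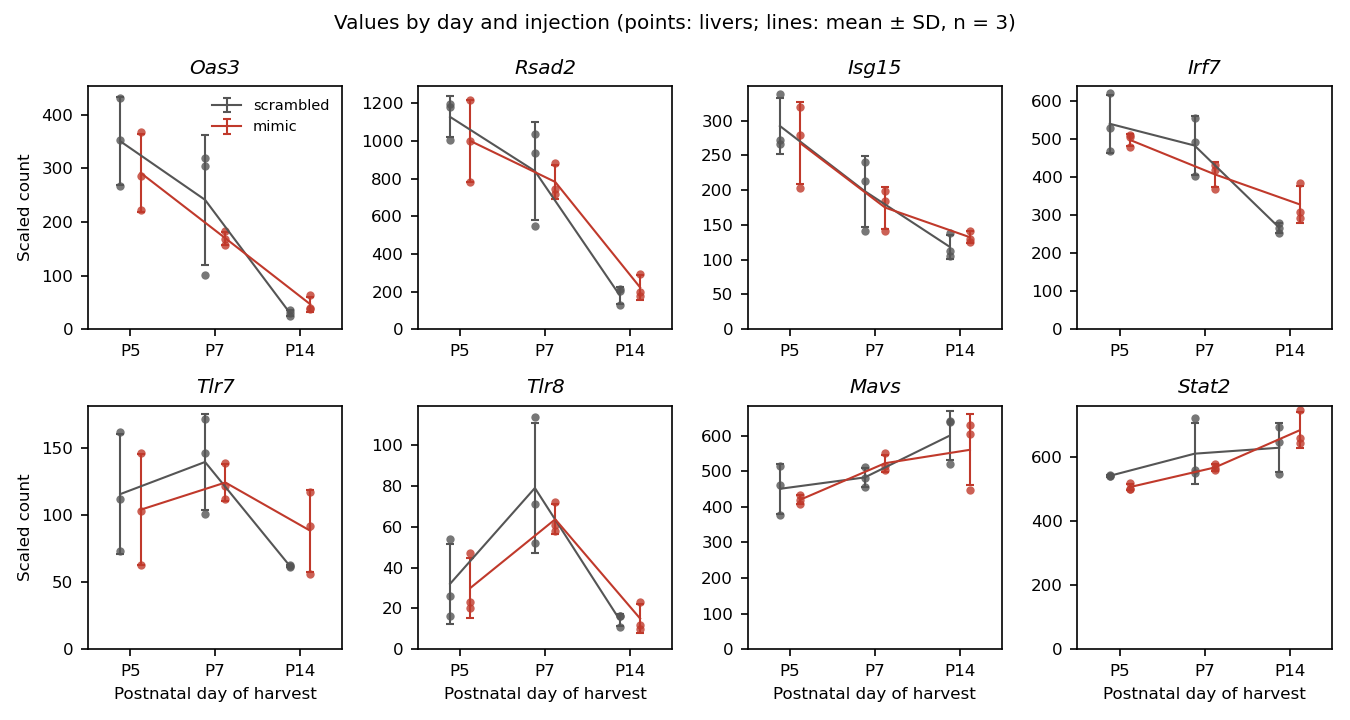
Scaled counts of 8 of the genes by postnatal day of harvest (x axis, P5, P7 and P14) in scrambled (grey) and mimic (red) livers; points are single livers, lines join group means and bars are SD of 3 livers. Oas3, Rsad2, Isg15 and Irf7 run down in both arms, Tlr8 peaks at P7, and Mavs and Stat2 run up.

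All 5 OAS genes fell from P5 to P14. They lie in 2 clusters on chromosome 5, with Oas2 (120730333 to 120749853), Oas3 (120753098 to 120777661) and Oas1a (120896256 to 120907521) in one and Oasl2 and Oasl1 (114896936 to 114937915) in the other. The sources used here do not give how reads shared between close relatives in such clusters were counted. Oas3 fell furthest of all 38 genes. It read 432, 267, 353, 285, 222 and 368 at P5, then 101, 304, 319, 168, 183 and 158 at P7, and 35, 25, 31, 39, 38 and 63 at P14.

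Every P14 value of Oas3 was below every P7 value, and the P7 livers were the most uneven, with scrambled replicate 1 lowest. The fitted fall from P5 to P14 was 8.28-fold with an interval from 5.92 to 11.6 (adjusted p = 3.76e-09, limma). Per kb of exon it went from 68.0 ± 16.3 to 8.16 ± 2.76 scaled counts (SD, n = 6). The neighbouring genes fell less. Oas1a read 120, 76, 123, 100, 102 and 85 at P5 and 63, 43, 60, 55, 51 and 54 at P14, with 66, 125, 98, 72, 71 and 61 between, a 1.83-fold fall without overlap of P5 and P14.

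Oas2 read 82, 119, 141, 90, 103 and 76 at P5, then 96, 157, 141, 75, 62 and 65 at P7, and 35, 57, 75, 94, 53 and 56 at P14. It fell 1.68-fold, with P14 mimic replicate 1 inside the P5 range. Oasl2 read 309, 182, 331, 220, 208 and 224 at P5, then 166, 428, 285, 227, 173 and 172 at P7, and 133, 147, 163, 167, 123 and 130 at P14, a 1.67-fold fall in which P5 and P14 did not overlap. Oasl1 read 127, 102, 146, 98, 92 and 103 at P5, then 102, 124, 106, 116, 104 and 100 at P7, and 73, 89, 55, 81, 79 and 97 at P14, a 1.41-fold fall with overlap at the lowest P5 livers.

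Of the antiviral effectors Rsad2 and Mx1 fell, and Mx2, Bst2 and Samd9l did not pass the test from P5 to P14. Rsad2, at chr12:26442746-26456452, encodes a radical SAM enzyme that makes a chain-terminating nucleotide. It read 1182, 1003, 1199, 1001, 784 and 1215 at P5, then 548, 936, 1037, 743, 884 and 720 at P7, and 128, 201, 212, 174, 296 and 197 at P14. No P14 liver reached the lowest P7 liver. The mean at P14 was 18.9% of that at P5, a 5.37-fold fall with an interval from 4.22 to 6.82 (adjusted p = 9.36e-10, limma).

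Mx1 read 44, 45, 69, 48, 39 and 37 at P5, then 37, 61, 68, 22, 33 and 27 at P7, and 23, 15, 22, 31, 26 and 20 at P14. It fell 2.02-fold with no overlap of P5 and P14. Its neighbour Mx2, which the annotation lists as a polymorphic pseudogene, had means of 51.3, 50.2 and 61.7. Bst2 read 319, 465, 362, 380, 377 and 385 at P5, then 324, 368, 362, 274, 329 and 272 at P7, and 388, 425, 381, 441, 365 and 408 at P14. It fell from P5 to P7 and rose from P7 to P14, with overlap at both steps. With the length covariate neither step passed, and the first turned to a difference of 0.01. Samd9l had means of 309, 390 and 316.

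In the ISG15 and ubiquitin branch, Isg15 and Herc6, the ubiquitin-type ligase that attaches Isg15 in mice, fell from P5 to P14. Isg15, at chr4:156199424-156200818, read 272, 267, 338, 280, 203 and 320 at P5, then 142, 213, 241, 185, 199 and 141 at P7, and 113, 138, 105, 142, 130 and 125 at P14. It fell at both steps, by 1.51-fold and then 1.46-fold, in all by 1.14 ± 0.14 on the log2 scale (SE), and P5 and P14 livers did not overlap. Usp18, which removes Isg15 and dampens the receptor, lay between 218 and 365 at P5 and between 255 and 303 at P14 and did not pass. Trim25, a ligase that acts with RIG-I, had means of 778, 887 and 694 and fell from P7 to P14.

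Of the 6 IFIT and IFI genes, Ifit1 and Ifit2 fell from P5 to P14. Ifit1 read 256, 185, 332, 189, 152 and 189 at P5, then 161, 269, 204, 211, 187 and 132 at P7, and 98, 165, 105, 126, 125 and 91 at P14. It fell 1.80-fold, with P14 scrambled replicate 2 above the lowest P5 liver. Ifit2 fell 1.63-fold without overlap, from 181 to 305 at P5 down to 114 to 156 at P14.

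Ifit3, between them on chromosome 19, read 204, 146, 244, 160, 149 and 133 at P5, then 157, 187, 171, 175, 149 and 124 at P7, and 147, 144, 149, 144, 144 and 115 at P14. Its values narrowed but overlapped, and it did not pass. Ifi44 lay between 59 and 152 at P5 and between 49 and 107 at P14, and Ifi27 had means of 242, 198 and 229, with a fall from P5 to P7. Ifi35 read 291, 314, 398, 343, 283 and 320 at P5, then 247, 248, 301, 208, 234 and 211 at P7, and 295, 292, 254, 292, 316 and 275 at P14. It was lowest at P7, falling 1.35-fold and then rising 1.20-fold, and both calls were lost with the length covariate.

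All 4 remaining genes fell from P5 to P14. Cxcl10, a chemokine that draws T cells, read 196, 178, 180, 164, 211 and 156 at P5, then 161, 214, 212, 186, 189 and 139 at P7, and 86, 117, 99, 109, 109 and 137 at P14. It was level to P7 and then fell, in all 1.65-fold and without overlap of P5 and P14. Xaf1, a partner of an inhibitor of apoptosis, fell 1.40-fold, Rtp4 fell 1.27-fold, and the ADP-ribosyltransferase Parp14 fell by 0.33 on the log2 scale. Rtp4 read 254, 215, 290, 209, 224 and 179 at P5, then 183, 260, 243, 185, 182 and 174 at P7, and 160, 183, 165, 232, 170 and 164 at P14, so its days overlapped.

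P5 and P14 livers lay apart for 12 of the 38 genes. P7 and P14 livers lay apart with P14 lower for 10 of the 38 and for 14.6% of all tested genes. Lower at P14 than at P5 were Eif2ak2, Irf7, Irf9, Ifit2, Oas1a, Oas3, Oasl2, Mx1, Rsad2, Isg15 and Cxcl10, 11 genes where 15.3% of all tested genes did so, and Stat2 was higher, as were 10.9% of tested genes. Of the 23 genes that changed from P5 to P14, 11 did so in every one of 30 other fits: Cxcl10, Eif2ak2, Ifit1, Ifit2, Irf7, Irf9, Isg15, Mavs, Oas1a, Oas3 and Rsad2. Leaving out a single liver ended the call for 5 others. These were Dhx58 (P5 scrambled 1 or 3, P14 scrambled 3 or P14 mimic 3), Irf3 (P5 scrambled 3, P5 mimic 1, P14 scrambled 1 or P14 mimic 3) and Xaf1 (P5 scrambled 3). The other two were Parp14 (7 of the 18 livers) and Herc6 (8 of the 18 livers). The remaining 7 kept the call with any single liver left out and lost it in other fits. Oasl1 and Rtp4 lost it after quantile normalization and in mimic livers alone, Mx1, Oas2 and Oasl2 in mimic livers alone, Stat2 in scrambled livers alone, and Tlr8 in either arm alone.

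All 20 genes that fell from P5 to P14 had lower values at P14 in each arm taken alone, but not all of them passed there. In scrambled livers 16 of the 20 passed and in mimic livers 10, and these 10 passed in both: Cxcl10, Eif2ak2, Ifit1, Ifit2, Irf7, Irf9, Isg15, Oas1a, Oas3 and Rsad2. Dhx58, Herc6, Parp14 and Tlr8 passed in neither. Oasl1 differed by -0.79 in scrambled and -0.19 in mimic livers and Rtp4 by -0.57 and -0.12 (log2). Of the genes that passed in both, from P5 to P14, Oas3 differed by -3.47 ± 0.33 in scrambled and -2.63 ± 0.33 in mimic livers (log2, SE), Rsad2 by -2.67 ± 0.23 and -2.18 ± 0.23, Isg15 by -1.29 ± 0.19 and -0.99 ± 0.19, and Irf7 by -1.01 ± 0.13 and -0.61 ± 0.13. With 3 livers per day, 18 of the 38 changed in scrambled livers and 12 in mimic livers, where 35.2% and 33.4% of all tested genes did. The medians were -0.57 and -0.22. For both arms the spread was estimated from all 18 libraries. Whether the arms differed in the P5 to P14 change alone was not tested. The test between days asks whether the mimic effect differed among all 3 days, P7 included, and none of the 38 passed it.

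Genes with and without the response element core are set side by side here with no test. The 12 with a match in the promoter window had a median P5 to P14 difference of -0.67, with 7 that fell and 1 (Stat2) that rose. The 16 with a window and no match had a median of -0.34, with 8 that fell and 2 that rose, and the 10 without a window had -0.34, with 5 that fell. Genes holding a match ranged from -3.05 (Oas3) to 0.32 (Stat2), and Ddx58, Ifih1, Ifit3 and Bst2, which hold one, did not pass from P5 to P14.

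Interferon transcripts themselves were at or near 0. Of 21 ligand genes listed, 11 were in the table and none reached the mean of 10 needed for a test. Ifnb1 was at 0 in 17 libraries and at 5 in P7 scrambled replicate 3. The 10 type I and related ligands summed to 65 scaled counts there, or 8.30 per kb, and to 3 or fewer in each other library. That is the library with 3.04 scaled counts per kb over otherwise silent genes, and the part of that signal in its ligand counts was not tested. Ifng, the type II ligand, had between 1 and 11 scaled counts.

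Other genes of the pathway are given by lists, whose counts stand beside the 24.8% of all tested genes that fell and the 23.9% that rose from P5 to P14. Of 18 genes for interferon receptors, kinases, STATs and their regulators, all tested, 10 fell from P5 to P14 and 0 rose. The receptor chain Ifnar1 did not pass, with means of 539 ± 48.1 at P5 and 538 ± 49.4 at P14 (SD, n = 6; adjusted p = 0.97, limma). The smallest p-values belonged to Isg20, an interferon-induced exonuclease, which fell by 2.13 on the log2 scale (409 ± 67.7 to 96.7 ± 33.7), then to Usp25, Jak2 and Socs1, which fell by 0.77, 0.58 and 1.01.

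Of 31 tested genes that carry signals from sensors, 16 fell and 3 rose. The necroptosis kinase Ripk3 fell by 1.46 on the log2 scale, the RNA-editing enzyme Adar by 0.89 and Irf8, a factor of macrophages and dendritic cells, by 0.85. Of 54 further interferon-stimulated genes, 28 fell and 3 rose, among them Cmpk2, the neighbour of Rsad2 in the genome, which fell by 1.65 (367 ± 72.2 to 115 ± 12.5). Uba7, the enzyme that activates Isg15, fell by 1.21, Tor3a by 1.10 and Slfn2 by 1.09.

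Of 33 tested genes of the interferon gamma response and antigen presentation, 13 fell and 0 rose, with Igtp, Tgtp1, Tap1 and Psmb8 at -0.52, -0.91, -0.48 and -0.36. Among 26 tested genes of the NF-kB and acute-phase response 8 fell and 3 rose, a share of falls near that of all tested genes. Sod2 rose by 0.49 and Saa2 by 1.89, while Lcn2 fell by 1.31 and Tnf by 2.58 to a mean of 2.67 scaled counts. The medians of these 5 lists were -0.19, -0.30, -0.31, -0.31 and -0.19, in the order given, against 0.01 for all genes. None of their genes passed the threshold in any mimic comparison.

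Markers of blood-derived cells moved with age as well, and their counts too stand beside the 24.8% and 23.9% of all tested genes that fell and rose. From P5 to P14, 10 of 16 macrophage markers fell and 0 rose, with a summed level of 9222 to 10970 scaled counts at P5 and 7049 to 8818 at P14. Clec4f, which marks Kupffer cells, the resident liver macrophages, did not pass (922 ± 58.6 to 848 ± 56.6, SD, n = 6), while Adgre1 fell by 0.82 on the log2 scale. All 10 neutrophil markers fell, from a sum of 3840 to 7662 down to 630 to 1497, as did 9 of 10 monocyte markers, from 4947 to 6675 down to 3646 to 4860. The median log2 difference of the monocyte markers was -1.48, a larger fall than that of their sum. B cell markers fell in 9 of 10, T and NK cell markers in 8 of 12, and red cell markers in 9 of 12 (8344 to 11139 down to 2416 to 3959).

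Of 12 endothelial markers 5 fell, of 10 stellate cell markers 6 rose and of 10 hepatocyte markers 4 rose. Of 9 markers of plasmacytoid dendritic cells, a main source of type I interferon, 4 were tested, with 1 that fell and 1 that rose. The sum of the 9 was 768 to 931 at P5 and 840 to 979 at P14. The untested ones fell short of the mean of 10, so that sum comes mostly from the tested ones. It does not give the level of these cells. No marker in these lists was at 0 in all libraries. In these whole-liver samples fewer cells of a type and less RNA per cell cannot be told apart. The part of these cells in the falls of the 38 genes was not tested.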

How the data were processed

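Stranded mRNA sequencing of total RNA from 18 mouse livers is described in the labels' protocols. Expression values, as deposited, are 1 score per gene and library: read counts which the authors divided by a size factor and rounded. That reading rests on the values, which are whole numbers with nearly equal totals and give recomputed median-ratio factors of 1.007 to 1.011. They are called scaled counts. Raw depth is not known here, and the count model foreseen for raw counts was not run. The submitters' processing notes name STAR 2.6.1d, featureCounts 1.6.5, Trimmomatic 0.39, Picard 2.21.7, DESeq2 1.26.0 and the build GRCm38 (mm10). The sources used here do not give whether duplicates were removed.

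Groups came from the sample titles. On log2(value + 1), limma 3.58.1 (R 4.3.3) was fitted to the 14104 genes that reached a mean level of 10, with 6 group means and a variance trend in eBayes. There were 12 residual degrees of freedom and 6.49 prior ones, and all 18 libraries share that spread. P-values were adjusted by Benjamini-Hochberg across every gene tested, with a threshold of 0.05. The pseudocount makes differences of weakly expressed genes too small. The script was tested on simulated data.

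The 38 genes and the other lists were chosen with earlier results of these data known. All 38 are accounted for. Values in every library are given for the 4 of smallest p in each mimic comparison, the 8 largest changes each way among those called from P5 to P14, and Tlr3, Tlr7, Ddx58, Ifih1, Irf7, Isg15, Ifit1, Ifit3, Oas2 and Cxcl10. Up to 4 genes of smallest p were named from other lists, with Ifnar1 and Ifnb1, and Clec4f and Adgre1 were picked after their values were seen. Some genes that this rule names are not reported here. GENCODE M21 gave exon lengths and 3′ UTRs, and RefSeq on GRCm38.p6 gave promoters and microRNAs. Summaries and plots were made with pandas 2.3.3, numpy 2.4.6 and matplotlib 3.10.9 in Python 3.11.15, and data.table (version 1.17.8).

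Replicate numbers in the titles do not state a shared litter or day. Mimic and scrambled livers with the same number had deviations correlated between -0.234 and 0.244 over all tested genes, so the numbers were not taken to pair livers. Other fits used a pseudocount of 5, every gene above 0, genes reaching a mean level of 50, or trimmed-mean (TMM) or quantile scaling. Further ones used no variance trend, a replicate block, the length correlation as a covariate, only the days compared, or fewer libraries. Comparisons within 1 arm are counted with these other fits, but they kept all 18 libraries and shared their spread.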

Additional observations from a re-analysis of the deposited data

How the results depend on the processing

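No fit brought any of the 38 genes past the threshold in a mimic comparison, with smallest adjusted p-values over all fits of 0.787 at P5, 0.113 at P7 and 0.599 at P14. The median mimic difference at P7 was -0.31 to -0.01 with single libraries left out and 0.09 (0.0908) without P7 scrambled replicates 2 and 3 together. With the replicate block the mimic comparisons again gave 0 genes, and 8, 23 and 24 genes changed from P5 to P7, P7 to P14 and P5 to P14; the numbers do not pair the livers, and same-numbered livers did not all correlate best. With the length covariate 0 genes rose and 0 fell from P5 to P7, Bst2 there turned to 0.01 (0.0085), and from P7 to P14 0 rose and 10 fell, with medians of -0.19 and -0.14 at the 2 steps; the cause was not tested. From P5 to P7, 3 fell without a mean-variance trend, and from P7 to P14, 6 rose after quantile normalization. Without P7 scrambled replicates 2 and 3, 0 rose from P5 to P7 and 11 fell from P7 to P14. In scrambled livers alone 0 rose and 0 fell from P5 to P7, and 0 rose from P7 to P14. From P5 to P14, 1 rose there, with a median of -0.57. In mimic livers alone 0 rose and 2 fell from P5 to P7, and 9 fell from P7 to P14. From P5 to P14, 10 fell there, with a median of -0.22. Comparisons within 1 arm have 3 livers per day, but their spread was estimated from all 18 libraries.

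With single libraries left out, the genes that rose from P5 to P7 numbered 2 to 5, highest without P5 scrambled replicate 1 (5) and P7 scrambled replicate 1 (4), and those that fell 2 to 7. The lowest counts came without P5 mimic replicate 3 (2) and without P5 scrambled 3, P5 mimic 1, P7 scrambled 1, P7 mimic 1 or P7 mimic 3 (3 each). From P7 to P14 3 to 5 rose, with 5 without P7 scrambled 2 or P14 scrambled 3, and 19 to 24 fell; from P5 to P14 2 to 3 rose and 17 to 22 fell. Of the other recomputed differences of named genes, 1473 for age kept their direction and side of the threshold and 171 lost the threshold. All 443 for the mimic kept both. Those were of the 4 genes of smallest p in each mimic comparison. None passed the threshold in any fit, so that count was largely fixed in advance. Over all 38 genes, the number below 0 at P7 moved from 31 to 21 without P7 scrambled replicate 2. From P5 to P14, Tlr8, a gene of low level, had the widest interval, with an SE of 0.29 (log2). Width did not follow level throughout. Ifi44 and Oas3 had SEs of 0.24 and 0.23, and Mx1, of lower level than either, had 0.20.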
